A study of Mus musculus with 8 samples.

Results

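A set of 10 genes of the trophectoderm and its cytoskeleton were followed in mouse embryonic stem cells: the simple epithelial keratins Krt7, Krt8, Krt18 and Krt19, and the transcription factors Cdx2, Eomes, Gata3, Tfap2c, Elf5 and Hand1. They were selected by name, as every probe set (the group of short probes an Affymetrix array uses for 1 transcript) whose only gene symbol in the platform annotation was 1 of these 10. All 10 genes were found among 18194 genes with a single symbol, through 18 probe sets. RNA was hybridised to 8 arrays, 2 biological replicates in each of 4 groups. All cells were of a 129X1 x 129S1 background, and every sample joined 1 part of a knockdown line to 4 parts of mock embryonic stem cells. In the shTop1 coculture, cells with a hairpin against Top1 shared a dish with mock cells for 4 days, and in the shp53 coculture the same was done with a hairpin against p53. In the shTop1 mix and the shp53 mix, which the labels call Control, both kinds of cell spent the 4 days in separate dishes and only their RNA was combined. The design used the mixes to separate what happens when the cells live together from what each knockdown does by itself. The labels do not say how many clones a knockdown line held or whether the mixes shared mock RNA. The p-values therefore measure the spread between these samples, which may be partly technical.

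The trophectoderm is the outer epithelium of the blastocyst and founds the placenta. In outer cells Hippo signalling is off, so that Yap1 and Tead4 can act in the nucleus and, together with Notch, switch on Cdx2, while active Hippo signalling keeps Cdx2 off in inner cells. Cdx2, Eomes, Gata3, Tfap2c and Elf5 hold the trophoblast programme, while Pou5f1 opposes Cdx2 in the inner cells from which embryonic stem cells come. Keratins are filament proteins that assemble as pairs of a type II chain (Krt7, Krt8) with a type I chain (Krt18, Krt19), and this set is the first to appear in the embryo, in trophectoderm and later in other simple epithelia such as visceral endoderm.

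The values are signal intensities on a scale that the authors had set to a common trimmed mean per array. Differences between groups are on the log2(signal + 16) scale after quantile normalization, which understates changes of dim genes. Values of a gene come from its brightest probe set, unless another is named. Genes entered the test from the 30th percentile of mean probe set level upward, which equals a signal of 22.2. Of the 10 genes, 8 were tested, and Gata3 and Elf5 stayed below this filter. Of the 18 probe sets, 13 reached it. Mean signal over all probe sets was 812 to 896 per array. The cells carried the markers of their label, with 9 of 9 embryonic stem cell markers above the filter and Pou5f1 at 11743 to 15921. Top1 had a signal of 5106 to 5419 on the shTop1 arrays and 5447 to 5951 on the shp53 arrays, with a log2 difference of -0.11 (limma adjusted p = 0.999). Knockdown cells were the minority in every sample, so this bulk level is a weak check of the labels. The level of the p53 gene was not analysed here.

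In the coculture comparison the 4 member keratins lay above 0, and so did most of the tested lineage factors, though mostly by less. The log2 difference between cocultures and mixes, averaged over both knockdowns, was above 0 for 4 of 4 keratins, with a median of 0.18. For the 4 tested transcription factors the median was 0.0090, with 3 of 4 above 0. Hand1, at 0.23, exceeded Krt7 (0.20), Krt18 (0.15) and Krt8 (0.14), so the 2 kinds of gene were not cleanly apart. Over all 14267 tested genes the median was 0.022 and 55.3% lay above 0. No gene passed limma's test at a Benjamini-Hochberg adjusted p of 0.05, neither among the 8 tested members nor over all genes, where 0% were called and no adjusted p lay below 0.279. Before adjustment, 11.7% of all genes (1672) had p under 0.05, as did 1 of the 8 members, Krt19. None of the differences described below passed the adjusted threshold.

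Within each knockdown the members were counted against the same background. With shTop1, 4 of 8 differences were above 0 (55.6% of all genes) and 0 of 8 had an unadjusted p under 0.05, against 8.20% of all genes, 5.12% higher and 3.08% lower. With shp53, 7 of 8 were above 0 (53% of all genes) and 0 of 8 had such a p, against 6.86% of all genes, 3.87% higher and 2.99% lower. The 2 comparisons share no array. The keratin median was 0.12 with shTop1 and 0.29 with shp53, and the factor median was -0.13 and 0.29.

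Krt8 and Krt18, the pair that makes the first keratin filaments of the embryo, are neighbours on chromosome 15 and are read away from each other. Of the 10 genes, 7 had a promoter window in RefSeq on GRCm38.p6. The 250 bases before the start of Krt8, Krt18 and Krt7 are shown, so that the divergent pair can be read beside another keratin of chromosome 15. A link between these windows and the levels was not tested. Capitals mark matches, on either strand, to any of 8 short motifs searched. These were TATAAA for the TATA box, GGGCGG for the GC box, TGANTCA for AP-1, GCCNNNGGC for AP-2 (the family of Tfap2c), GGAATG for TEAD (the factors that act on Cdx2 under Hippo control), AGATAA for the family of Gata3, CCGGAAG for Ets factors (the family of Elf5) and AGGTGTGA for T-box factors (the family of Eomes).
Krt8, chr15:102004343-102004592, minus strand: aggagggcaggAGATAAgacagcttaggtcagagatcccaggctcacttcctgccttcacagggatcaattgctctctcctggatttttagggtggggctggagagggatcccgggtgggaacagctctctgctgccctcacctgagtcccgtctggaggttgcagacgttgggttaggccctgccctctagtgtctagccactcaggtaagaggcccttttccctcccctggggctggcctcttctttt
Krt18, chr15:102027966-102028215, plus strand: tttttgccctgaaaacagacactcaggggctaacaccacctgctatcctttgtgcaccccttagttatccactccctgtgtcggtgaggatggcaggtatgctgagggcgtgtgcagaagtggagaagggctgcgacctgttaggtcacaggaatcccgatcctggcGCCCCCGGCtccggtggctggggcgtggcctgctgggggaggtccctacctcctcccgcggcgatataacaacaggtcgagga
Krt7, chr15:101412153-101412402, plus strand: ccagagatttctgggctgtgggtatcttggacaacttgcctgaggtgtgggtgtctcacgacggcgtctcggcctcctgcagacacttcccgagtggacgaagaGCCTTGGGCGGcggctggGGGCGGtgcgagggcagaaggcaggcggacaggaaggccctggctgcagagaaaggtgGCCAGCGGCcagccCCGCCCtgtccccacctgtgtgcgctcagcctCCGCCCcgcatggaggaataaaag
The Krt8 window held 1 GATA match, 239 bases before the start, and the Krt18 window 1 AP-2 match, 83 bases before it. The Krt7 window held 4 GC boxes and 2 AP-2 matches, of which 1 pair overlaps. Over 32851 windows of the same length, 9.99% held the GATA motif, 13.7% the AP-2 motif and 32.7% the GC box. A match is a run of letters and not a shown binding site. GC content was 58.0% for Krt8, 60.4% for Krt18 and 66.0% for Krt7, against a median of 52.4% over all windows. The 3 windows also differ in CpG count, with 3 in Krt8, 12 in Krt18 and 16 in Krt7.

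Krt8, the type II partner, had a signal of 4100.2 and 4012 in the shTop1 mix against 4538 and 4416 after shTop1 coculture. With shp53 it had 3971 and 4305 as a mix against 4706 and 4551 after coculture. All 4 cocultures lay above all 4 mixes. This was so for 2 of the 8 members, Krt8 and Krt19, and for 5.75% of all genes, while 0 of 8 members and 3.35% of all genes had all cocultures below. The log2 difference was 0.14 ± 0.07 (SE) averaged over both knockdowns, a ratio of 1.11, with a 95% interval from -0.019 to 0.31 (limma adjusted p = 0.460). The difference was close in both knockdowns, 0.13 with shTop1 and 0.16 with shp53 (adjusted p = 0.745 and 0.772). The other 2 Krt8 probe sets, of a type whose probes may also bind related transcripts, had differences of 0.16 and 0.10 (adjusted p = 0.566 and 0.645 in a fit of every probe set). Their cocultures overlapped the mixes, with 3 and 2 of 4 cocultures above the highest mix.

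Krt18, the type I partner, had 2094 and 1791 in the shTop1 mix against 2043 and 2121 after shTop1 coculture. With shp53 it had 1835 and 1972 as a mix against 2316 and 2073 after coculture. The groups overlapped, since shTop1 mix replicate 1 lay among the cocultures and 2 of 4 cocultures exceeded the highest mix. Cocultures minus mixes gave a log2 difference of 0.15 ± 0.08 (SE), with a 95% interval from -0.053 to 0.35 (limma adjusted p = 0.518). It was 0.11 with shTop1 and 0.20 with shp53 (adjusted p = 0.830 and 0.774). The shTop1 value was -0.0081 without shTop1 mix replicate 2, which held the lowest Krt18 signal of the 8 arrays.

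Krt19, a small type I keratin that can replace Krt18 in simple epithelia, had the largest coculture difference among the 4 keratins when averaged over both knockdowns, while with shp53 alone that of Krt7 was larger. Its signal was 602 and 593 in the shTop1 mix against 739 and 729 after shTop1 coculture, and 607 and 656 in the shp53 mix against 986 and 695 after shp53 coculture. The 4 cocultures again lay above the 4 mixes, by a narrow margin in shp53 coculture replicate 2 and a wide one in replicate 1. On the log2 scale the difference was 0.35 ± 0.12 (SE), a ratio of 1.27 with a 95% interval from 1.04 to 1.55 (limma adjusted p = 0.375). It was 0.31 with shTop1 and 0.39 with shp53 (adjusted p = 0.672 and 0.734). The shp53 value was 0.15 without shp53 coculture replicate 1 and 0.62 without replicate 2. Without shp53 coculture replicate 1 the mean difference was 0.23, and without shp53 coculture replicate 2 it was 0.46. The unadjusted p was above 0.05 when shTop1 mix replicate 1 or 2, shp53 mix replicate 1 or shTop1 coculture replicate 1 was left out.

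Krt7, a type II keratin of trophoblast and ductal epithelia, was dim and variable between replicates. Its signal was 77.7 and 70.2 in the shTop1 mix against 68.2 and 63.6 after shTop1 coculture, and 30.3 and 80.4 in the shp53 mix against 90.4 and 59.8 after shp53 coculture. The shTop1 cocultures lay below their mixes, and the shp53 groups overlapped, with the lowest of the 8 values in shp53 mix replicate 1. The log2 difference was -0.07 ± 0.39 (SE) with shTop1 and 0.48 ± 0.39 with shp53 (limma adjusted p = 0.970 and 0.820). The mean difference of 0.20 ran from -0.095 without shp53 mix replicate 1 to 0.50 without shp53 mix replicate 2.

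**Figure D1:**
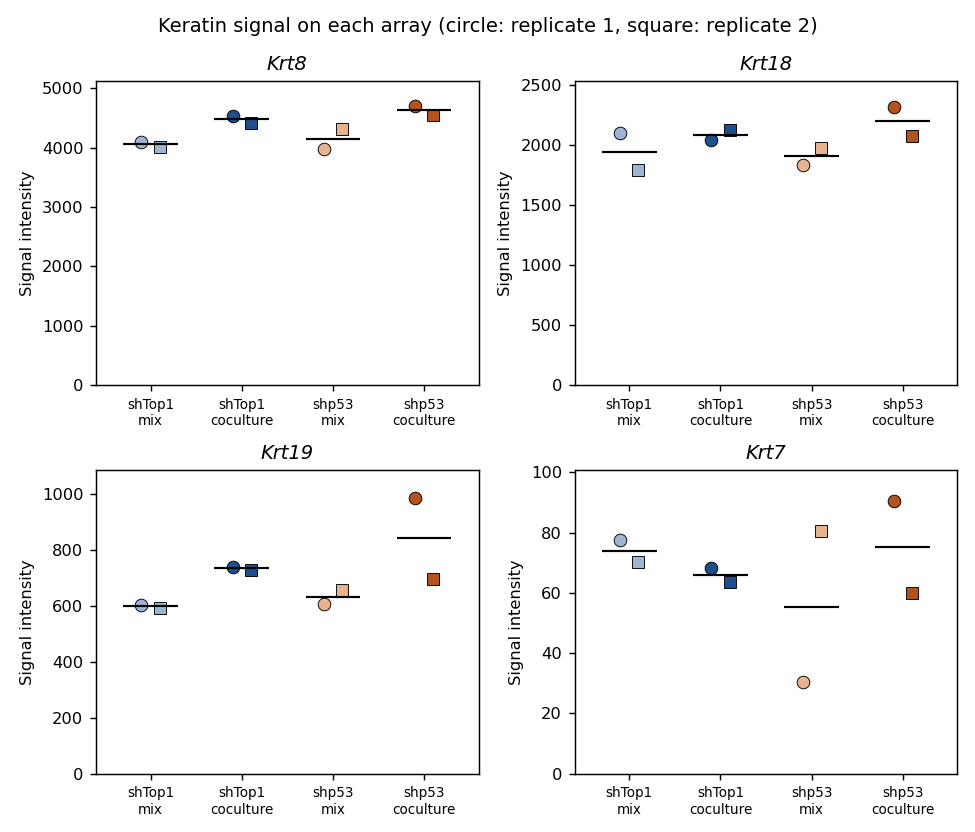
Signal intensity (vertical axis, linear from 0) of Krt8, Krt18, Krt19 and Krt7 on each of the 8 arrays, by group. Circles are replicate 1, squares replicate 2 and lines the mean of 2 arrays. For Krt8 and Krt19 the 4 cocultures lie above the 4 mixes, while the groups of Krt18 and Krt7 overlap.

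The same array stood highest for every keratin. In shp53 coculture replicate 1, 4 of 4 keratins had their highest signal of the 8 arrays, and the lowest fell in shp53 mix replicate 1 (Krt8, Krt7) or shTop1 mix replicate 2 (Krt18, Krt19). This was not particular to the keratins. Cldn4, Pkp3 and Lama1, from other lists described below, were also highest in shp53 coculture replicate 1, though not all genes of those lists were. The share of all genes highest in that array was not counted. In an exact two-sided permutation test of the 4 cocultures against the 4 mixes, Krt8 and Krt19 reached the smallest p this design allows, 0.0286. This p follows from the order already given, all cocultures above all mixes, and adds nothing to it. Of all genes, 5.75% had that order and 3.35% the reverse. After Benjamini-Hochberg adjustment over the 8 genes tested this way, the p was 0.114 for both, with 4 of 4 cocultures above the mixes' mean. For Krt18 the exact p was 0.0857 (adjusted 0.229), and for Krt7 it was 0.686.

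The keratins were then set against each other across arrays, since type II and type I chains pair in filaments. The pairs Krt18 with Krt19 and Krt7 with Krt8 each hold chains of 1 type and are not such partners. Of 6 pairs compared, the 3 pairs among Krt8, Krt18 and Krt19 had Pearson's r of 0.832 (Krt8 and Krt18), 0.869 (Krt8 and Krt19) and 0.814 (Krt18 and Krt19) over 8 arrays. Their exact permutation p was 0.00925, 0.00141 and 0.0127, or 0.0255, 0.00848 and 0.0255 adjusted over the 6 pairs. Spearman's rho was 0.714, 0.857 and 0.667 (exact permutation p = 0.0576, 0.0107 and 0.0831, adjusted 0.166, 0.0643 and 0.166). Without the 2 arrays farthest from the median of the first gene, r was 0.596, 0.863 and 0.813. Taken as deviations from the 4 group means, which removes the coculture difference, r was 0.601, 0.470 and 0.550, with 4 independent deviations behind each. Leaving out shTop1 mix replicate 2 or shp53 coculture replicate 1 put each of the 3 pairs above an adjusted p of 0.05, with r from 0.653 to 0.866. Without shp53 mix replicate 1 this was so for Krt8 with Krt18 (r = 0.789) and Krt18 with Krt19 (0.798), and without shp53 mix replicate 2 for Krt18 with Krt19 (0.809). The pairs with Krt7 had r of 0.502 with Krt8, 0.526 with Krt18 and 0.408 with Krt19 (exact permutation p = 0.203 to 0.255, adjusted 0.245 to 0.255; Spearman's rho 0.452, 0.524 and 0.405, exact permutation p = 0.197 to 0.327, adjusted 0.295 to 0.327). Without shp53 mix replicate 1 and shp53 coculture replicate 1, the 2 arrays farthest from the Krt7 median, they were -0.536, -0.103 and -0.401, so those relations rest on these 2 arrays. As deviations from the group means the Krt7 pairs had r of 0.993 with Krt8, 0.548 with Krt18 and 0.524 with Krt19, against 0.470 to 0.601 for the other 3 pairs.

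**Figure D2:**
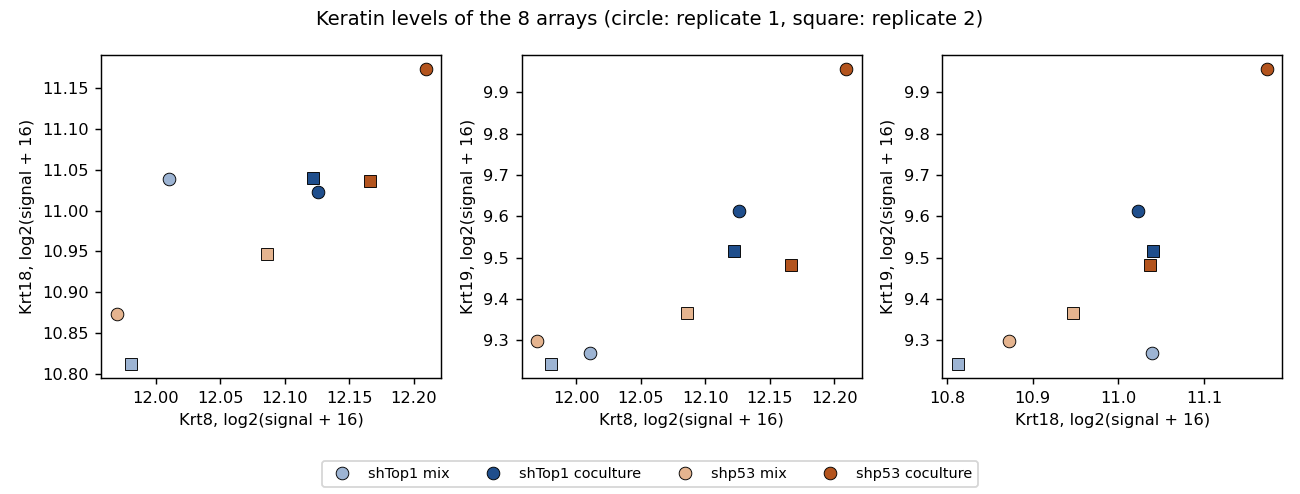
Levels on the log2(signal + 16) scale, quantile normalized, of Krt18 against Krt8, Krt19 against Krt8 and Krt19 against Krt18, each point 1 of the 8 arrays (circles replicate 1, squares replicate 2, colours the 4 groups). The points rise together with r of 0.832, 0.869 and 0.814, and shp53 coculture replicate 1 is the highest point in each panel.

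Among the 14266 other tested genes, those most like Krt8 over the 8 arrays were Fam104a (r = 0.973), Usp39 (0.973), Pdia5 (0.966), 2410006H16Rik (0.962) and Lrrc56 (0.962). Those most like Krt18 were Atg14 (0.981), Gm32031 (0.933), Crb3 (0.933), an apical polarity protein gene of epithelia, Tmx2 (0.930) and Qdpr (0.927). These 10 were picked as the highest of 14266 values and carry no test. Krt18 ranked 336th among genes like Krt8, and Krt8 ranked 152nd among genes like Krt18.

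In their brightest probe sets the 4 tested transcription factors had differences of opposite sign in the 2 knockdowns, none past the threshold. Further sets of Eomes and Tfap2c did not all share this. Cdx2, the homeodomain factor that commits outer cells to trophectoderm, was dim, with 36.1 and 59.96 in the shTop1 mix against 49.96 and 14.99 after shTop1 coculture, and 58.9 and 47.1 in the shp53 mix against 68.6 and 70.05 after shp53 coculture. The 2 shp53 cocultures were the highest of the 8 arrays, and shTop1 coculture replicate 2 was the lowest and below the filter value. Cocultures minus mixes gave a log2 difference of -0.44 ± 0.32 (SE) with shTop1 and 0.37 ± 0.32 with shp53 (limma adjusted p = 0.747 and 0.830). The difference between the 2 effects was -0.81, with a 95% interval from -1.92 to 0.30 (limma adjusted p = 1.00). Without shTop1 coculture replicate 2 it was -0.32, and the shTop1 value was 0.050. A further Cdx2 probe set stayed below the filter on average, at 2.38 to 19.3.

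Eomes, the T-box factor of trophoblast stem cells and mesendoderm, had 191 and 199 in the shTop1 mix against 221 and 211 after shTop1 coculture, and 278 and 200.2 in the shp53 mix against 224 and 190 after shp53 coculture. The highest of the 8 values was in shp53 mix replicate 1, and the shTop1 cocultures lay above their mixes. On the log2 scale the difference was 0.18 ± 0.17 (SE) with shTop1 and -0.18 ± 0.17 with shp53, and the mean was 0.0013 with a 95% interval from -0.29 to 0.29 (limma adjusted p = 0.801, 0.846 and 0.997). The shp53 difference was 0.049 without shp53 mix replicate 1. The other Eomes probe set had 0.20 with shTop1 and 0.047 with shp53 (adjusted p = 0.745 and 0.966 in the fit of every probe set), so the 2 sets differ in sign in the shp53 comparison.

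Tfap2c, an AP-2 factor shared by trophectoderm, germ cells and naive stem cells, had 1172 and 1091 in the shTop1 mix against 923 and 1062 after shTop1 coculture, and 665 and 1040.2 in the shp53 mix against 1142 and 828 after shp53 coculture. The shTop1 mixes lay above their cocultures, and the shp53 arrays overlapped. The log2 difference was -0.17 ± 0.23 (SE) with shTop1 and 0.21 ± 0.23 with shp53 (limma adjusted p = 0.870 and 0.882), and the mean was 0.017 with a 95% interval from -0.39 to 0.42. Without shp53 mix replicate 1 the shp53 value was -0.091. The other 2 Tfap2c probe sets had mean differences of -0.06 and 0.10 (adjusted p = 0.924 and 0.757), so the 3 sets did not share a sign. By knockdown, the former had -0.23 with shTop1 and 0.11 with shp53. The latter had 0.077 and 0.12, above 0 in both.

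Hand1, a basic helix-loop-helix factor of trophoblast giant cells and extraembryonic mesoderm, had 50.8 and 57.8 in the shTop1 mix against 63.5 and 35.2 after shTop1 coculture, and 37.4 and 29.5 in the shp53 mix against 34.6 and 76.1 after shp53 coculture. The replicates lay far apart in both cocultures and close together in both mixes, and the shp53 mix had the lowest group mean. Cocultures minus mixes gave a log2 difference of -0.09 ± 0.29 (SE) with shTop1 and 0.55 ± 0.29 with shp53 (limma adjusted p = 0.9501 and 0.757). The shp53 difference was 0.17 without shp53 coculture replicate 2. Gata3, the zinc finger factor that acts beside Cdx2, had 2.40 to 19.7 on the 8 arrays, and Elf5, the Ets factor that marks committed trophoblast stem cells, had 5.48 to 28.3 in its brighter probe set. Both had means under the filter and got no test, and values this low do not show that the genes were silent.

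**Figure D3:**
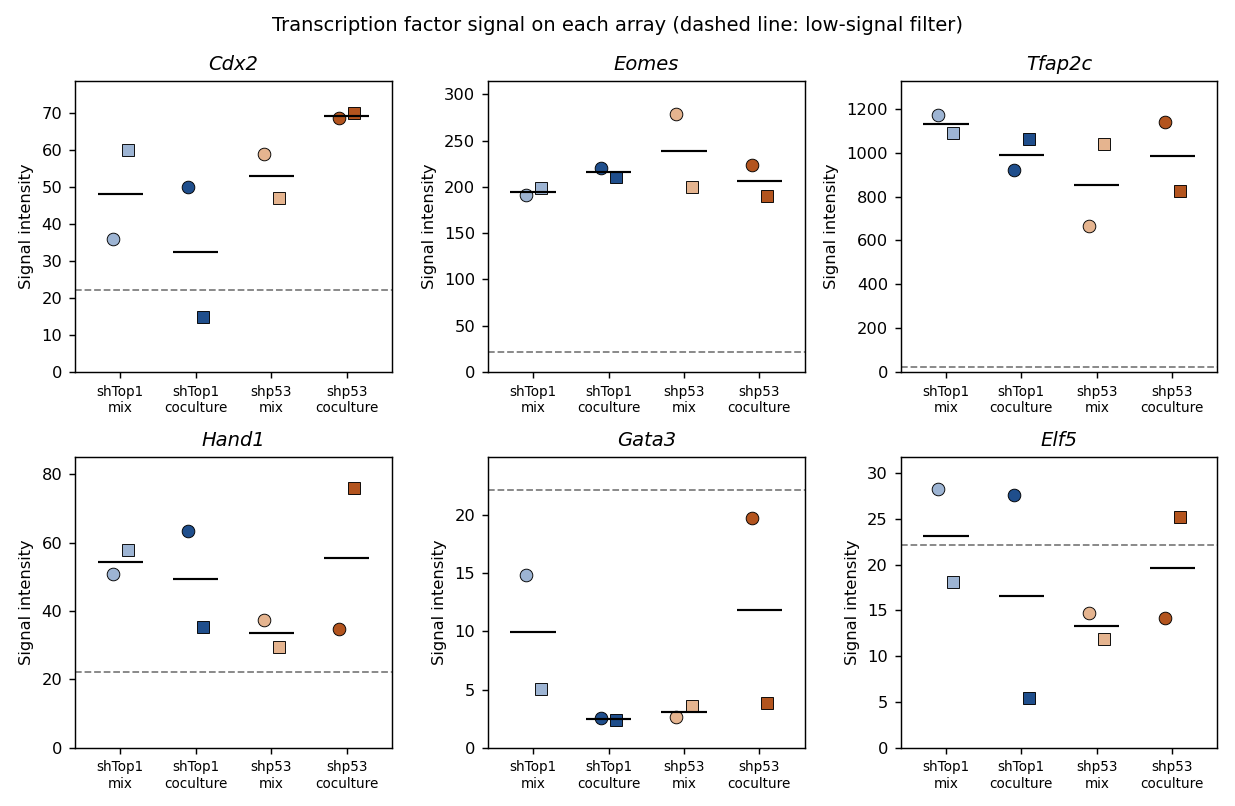
Signal intensity (vertical axis, linear from 0) of the 6 transcription factors on each array, by group, with circles for replicate 1, squares for replicate 2, lines for the mean of 2 arrays and a dashed line at the filter of 22.2. Gata3 lies below the line on all 8 arrays, Elf5 around it, and Eomes and Tfap2c far above it.

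The difference between the coculture effects was tested for each of the 8 genes. It was below 0, which is a larger value with shp53 than with shTop1, for 7 of 8, with a median of -0.23, and over all genes 51.5% were above 0. No member had an unadjusted p under 0.05 here, nor did any adjusted p fall under 0.999, against 4.30% of all genes (614) at that unadjusted p, 2.63% higher and 1.68% lower, and 0% after adjustment. Eomes was the exception in sign, with 0.35 and a 95% interval from -0.23 to 0.94, and it had 0.13 without shp53 mix replicate 1. The count of 7 rests on single arrays for the keratins. Leaving out shp53 mix replicate 1 turned Krt7 to 0.052 and Krt8 to 0.026, leaving out shTop1 mix replicate 1 turned Krt18 to 0.025, and leaving out shp53 coculture replicate 1 turned Krt19 to 0.16. Between knockdowns over both conditions, shTop1 minus shp53 was above 0 for 3 of 8 (48.7% of all genes), from -0.44 (Cdx2, limma adjusted p = 0.999) to 0.27 (Hand1), and 0 of 8 had an unadjusted p under 0.05, against 4.70% of all genes (670), 2.40% higher and 2.29% lower.

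**Figure D4:**
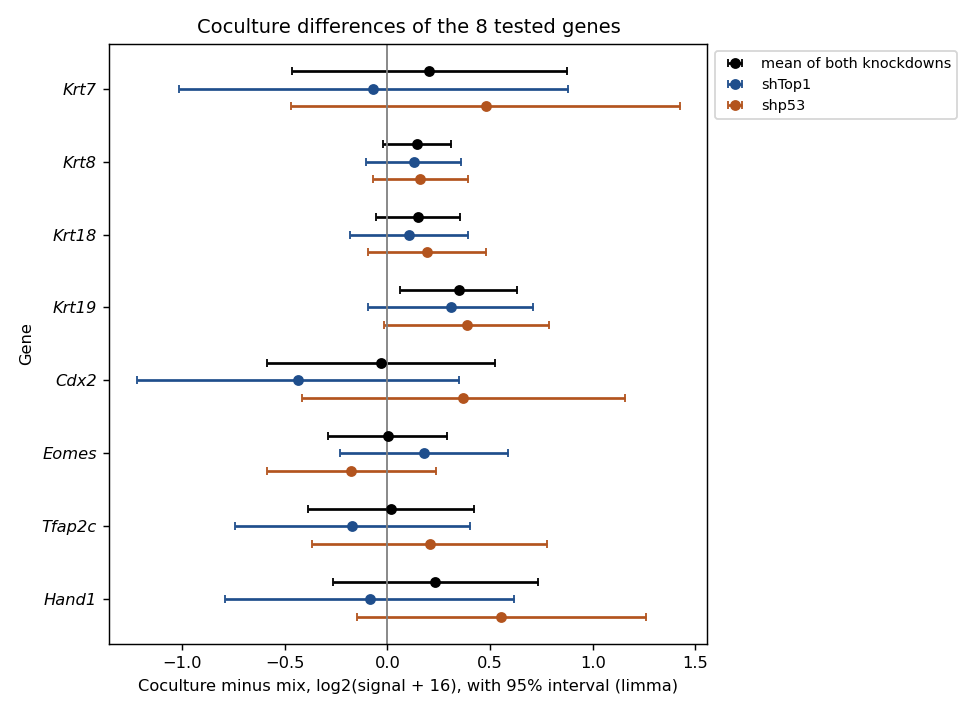
Coculture minus mix on the log2(signal + 16) scale (horizontal axis) for the 8 tested genes, as the mean of both knockdowns and in each, with 95% intervals from limma. The interval of the mean lies wholly above 0 for Krt19 alone, and the intervals of the dim genes Krt7, Cdx2 and Hand1 are the widest.

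Other genes of the programme came from lists written down with earlier results known. Of 38 further trophoblast genes 29 had a named probe set and 27 were tested, with a median coculture difference of 0.034, 17 of 27 above 0, 0 passing the adjusted threshold, and 2 higher and 1 lower at an unadjusted p under 0.05 (over all genes 7.09% higher and 4.63% lower). The smallest p belonged to Gata2, the sister factor of Gata3 in trophoblast, with 159 and 152 in the shTop1 mix against 241 and 263 after shTop1 coculture, and 205 and 191 in the shp53 mix against 236 and 258 after shp53 coculture. All 4 Gata2 cocultures lay above the 4 mixes, with a log2 difference of 0.50 ± 0.07 (SE, limma adjusted p = 0.282). Such an order was found for 1 of the 27 genes and for 5.75% of all genes. Next was Rhox9, a homeobox gene of placenta and germ cells, with -0.33 ± 0.11 (adjusted p = 0.372). Tpbpa, which marks the spongiotrophoblast, and Ctsq, which marks labyrinth giant cells, stayed below the filter.

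The Hippo and Notch regulators of Cdx2 had a median of 0.0032, with 9 of 17 above 0 and 3 higher, 0 lower at an unadjusted p under 0.05, and 0 past the adjusted threshold. Over all genes 55.3% were above 0, and 7.09% were higher and 4.63% lower at that p. Amot, which holds Yap1 at junctions, had 0.21 ± 0.06 (SE, limma adjusted p = 0.358), and Wwtr1, the Yap1 relative also called Taz, had 0.27 ± 0.10 (adjusted p = 0.400). Genes of epithelial junctions and the plaques to which keratins anchor had a median of 0.057, with 17 of 26 above 0, 3 higher and 0 lower at that p, and 0 past the adjusted threshold. Grhl3, a grainyhead factor of surface ectoderm and trophoblast, had 0.35 ± 0.08 (adjusted p = 0.333), with its cocultures at 483 to 634 and its mixes at 397 to 457. All 4 cocultures lay above all 4 mixes for 3 of the 26 junction and plaque genes, against 5.75% of all genes. Pkp3, a desmosome plaque protein gene, had 0.31 ± 0.11 (adjusted p = 0.386).

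The rest of the keratin family was largely too dim to test. Of 44 other keratin genes 16 passed the filter, with 0 past the adjusted threshold. At an unadjusted p under 0.05, 1 was higher and 3 were lower, against 7.09% and 4.63% of all genes. All 4 cocultures lay above all 4 mixes for 1 of the 16 and below for 1, against 5.75% and 3.35% of all genes. Krt88 had 14.7 to 29.0 in the mixes and 66.2 to 92.3 in the cocultures, a log2 difference of 1.39 ± 0.13 (SE, limma adjusted p = 0.279). Krt84, a hair keratin, had -0.72 ± 0.21 (adjusted p = 0.357), from 19.9 to 49.4 in the mixes and 9.24 to 34.3 in the cocultures. The filter lies at 5.254 on the log2 scale. Krt84 averaged 4.76 and 5.15 in the cocultures and 6.04 and 5.31 in the mixes, so it entered the test through the mixes, where it was high. The same holds for Krt16, another of the 3, which was singled out after its values were seen. Krt80, the last of the 3, averaged 4.60 and 5.49 in the cocultures and 5.59 and 6.26 in the mixes. Krt88 averaged 5.28 and 5.12 in the mixes, at about the filter, and 6.73 and 6.44 in the cocultures. It thus entered the test mainly through the cocultures, where it was high. Over the 16 the median difference was -0.17, with 4 above 0 and 12 below, while 55.3% of all genes were above 0. Those below included Krt42, far above the filter at 714 to 1065, with -0.18 (limma adjusted p = 0.593). Since genes such as Krt84 and Krt88 entered mainly through 1 condition, no direction is read from this list.

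Markers of other cell types that carry simple keratins or can share the dish were read beside these values. Of the primitive and visceral endoderm markers 19 of 19 were measured and all but Afp reached the filter. Their summed signal was 84100 to 84878 in the shTop1 mix against 93282 to 99958 after coculture, and 85994 to 92342 against 97932 to 97940.0 with shp53. They had a median coculture difference of 0.11, with 16 of 18 above 0, 2 higher at an unadjusted p under 0.05 and 0 past the adjusted threshold. For this and the marker lists below, the background over all genes was 55.3% above 0, with 7.09% higher and 4.63% lower at that p. Fibroblast markers, 12 of 12 measured and 7 tested, had a summed signal of 573 to 597 in the shTop1 mix against 691 to 720 after coculture, and 613 to 771 against 719 to 830 with shp53, with Col3a1, Dcn, Lum, Postn and Col6a1 below the filter. Their median difference was 0.30, with 7 of 7 above 0, 3 higher at an unadjusted p under 0.05 and 0 past the adjusted threshold. Surface epithelium markers, 6 of 6 measured with Krt14 and Krt15 below the filter, had sums of 1009 to 1060 in the mixes and 856 to 957 in the cocultures, and a median of -0.22 with 1 of 4 above 0, and 0 higher and 1 lower (Sfn) at an unadjusted p under 0.05. The embryonic stem cell markers had sums of 113627 to 126250 in the mixes and 108154 to 140132 in the cocultures, with a median of 0.056 and 6 of 9 above 0. Of them 0 were higher and 1 was lower at an unadjusted p under 0.05, Zfp42 with -0.28 (limma adjusted p = 0.390), and Sox2 had -0.29 (adjusted p = 0.433). Primitive streak markers (7 of 8 measured, 3 tested) and 2-cell-like markers (4 of 8 measured, 2 tested) had sums of 192 to 238 and 163 to 192 in the mixes, and 168 to 243 and 137 to 200.1 in the cocultures. The endoderm sums of all 4 cocultures thus lay above those of all 4 mixes, while the fibroblast sums overlapped with shp53. A sum is led by its brightest genes, such as Col4a1 at 15970 to 20774. Gene by gene, all 4 cocultures lay above all 4 mixes for 1 of 18 endoderm markers and 3 of 7 fibroblast markers. This was so for 5.75% of all genes, and 0 markers of either list had all cocultures below. The part of either in the keratin values was not tested. In such bulk RNA more cells of a type and more RNA per cell cannot be told apart.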

How the data were processed

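The labels describe biotin-labelled total RNA on Affymetrix arrays. The files hold 1 signal intensity for each of 45101 probe sets on each of 8 arrays, deposited on a linear scale. Their mean without the highest and lowest 2% was about 500.003 on every array, so the authors had scaled them, as read from the values, with a tool not named in the labels. Probe sets were named where the platform annotation gave 1 symbol (34958). After quantile normalization each intensity became log2(value + 16), each gene by its brightest probe set, filtered at the 30th percentile (14267 genes). Group means of all 8 arrays were fitted with limma 3.58.1 in R 4.3.3 (lmFit, eBayes, 4 residual degrees of freedom, two-sided, Benjamini-Hochberg over all tested genes, threshold 0.05). The fit alone, without normalization, probe set choice and filter, was tried on simulated gene levels. Its planted changes were larger than the coculture differences of the members, so it does not show power for those. Exact permutation tests of cocultures against mixes used SciPy 1.17.1. Correlations and their exact p were computed directly over all 40320 orders of the 8 arrays. All 10 members were named, with the 5 genes most like Krt8 and Krt18 and the 2 smallest p of each list of other genes of the programme. The members and lists were chosen with earlier results of these data known. The number of arrays limits the precision. Alternatives were a replicate block, 2 other scalings, 2 other filters, 2 other uses of probe sets, other variances, fewer groups, pseudocounts of 1 and 64, and leaving out each array.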

Additional observations from a re-analysis of the deposited data

How the results depend on the processing

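Under 11 alternative settings and with each of 8 arrays left out, 0 of 751 limma values of the 8 tested members passed the adjusted threshold, and the lowest adjusted p among them was 0.172 (Krt19, mean of both knockdowns, with trended and robust variances). That variance model was also the exception in the count of genes called, which was 31 in the mean coculture comparison, 3 with shTop1 and 1 with shp53, where the setting used called 0. In the other settings, and for the other 2 comparisons under this one too, the count was 0. The mean coculture differences of Krt8, Krt18, Krt19 and Hand1 kept their sign in each setting run, while Krt7, Cdx2, Eomes and Tfap2c changed sign in 1, 3, 6 and 5 settings. Leaving out 1 array, Krt8 ran from 0.11 to 0.17, Krt18 from 0.094 to 0.21 and Krt19 from 0.23 to 0.46. With median centring Krt8 had 0.21, but this scaling also raised the median of all genes from 0.022 to 0.068 and the share above 0 from 55.3% to 64.5%. Over all tested genes, deviations of same-numbered arrays correlated at -0.0067 to 0.051, so no broad shared deviation was seen. This cannot show whether same-numbered samples were prepared together. With the replicate number as a block, the count of genes called was 0 in each comparison and Krt19 had 0.35 (limma adjusted p = 0.391). The correlation of Krt8 and Krt18 ran from 0.738 to 0.956 leaving out 1 array. Cdx2 and Hand1 have no value under the filter at the 50th percentile, which removes them. Gata3, Elf5 and the dim sets of Cdx2 and Hand1 lie where signal cannot be told from background, and groups of 2 arrays give wide intervals for dim genes.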
